A study of Mus musculus with 13 samples.

Results

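Binding of the architectural protein CTCF was compared between limbs of mouse embryos homozygous for 1 or the other of 2 HoxD deletion alleles that share a lac reporter designated d9lac. The alleles are del(1-13)d9lac and del(attP-Rel5)d9lac, and the members are their CTCF peak lists, 2 of the 13 samples of the series. They were chosen by genotype, not by their values, though with earlier results of these data known. Each list comes from 1 chromatin immunoprecipitation sequencing (ChIP-seq) library of whole forelimbs and hindlimbs of homozygous embryos at E12.5, bred from heterozygous parents on a B6CBAF1 background, with the same anti-CTCF antibody and 10 min of formaldehyde fixation. The name del(1-13) refers to the genes from Hoxd1 to Hoxd13. The end points of either deletion, the DNA carried in the reporter and the number of embryos pooled are not given in the sources used here. Wild-type whole limbs of the same strain, wild-type distal and proximal forelimbs of CD1 embryos, and whole limbs of del(8-13)d11lac, all at the same stage, served as CTCF references. A wild-type whole-limb list of RAD21, a cohesin subunit, served as the cohesin reference. Since each allele has 1 library, nothing was replicated and no p-value is given, and allele and library cannot be told apart.

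CTCF recognises a long, directional DNA motif through its zinc fingers and stops cohesin as it extrudes chromatin loops, so that many CTCF sites lie at the borders of topologically associating domains. The HoxD cluster sits at such a border, between a regulatory landscape on its centromeric side, which acts on posterior Hoxd genes in the digits, and another on its telomeric side, which acts on more anterior genes in the forearm. Evx2, a homeobox gene, and Lnpk lie next to Hoxd13 on the centromeric side, and Mtx2 follows Hoxd1 on the telomeric side.

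The sequences below are the best motif matches at the HoxD sites on which the comparison turns, 29 bases each, read 5′ to 3′ on the motif strand from the mm10 reference (GRCm38). Capitals mark the 19 bases matched to a CTCF matrix built from wild-type whole-limb summits, whose consensus, with N where no base held the majority, was NGGCCACCAGGGGGCGCNN. The matrix was searched on both strands within 50 bp of each summit, with 1 best match kept per window, and 5% of control windows of the same length placed 2 kb away passed its cutoff of 0.645 bits. The first 3 were called in del(1-13)d9lac and not in del(attP-Rel5)d9lac, the next 2 were called in both lists, and the last 4 were strong wild-type sites of the cluster with no peak in either allele.
Evx2 untranslated region, chr2:74655518-74655546, minus strand: tcctgCTGCCGCTAGGGGGCGCCCcgggg
Evx2 upstream, chr2:74661992-74662020, minus strand: cgaggAAAACAGATGGGGGCGCCAaatga
Between Evx2 and Hoxd13, chr2:74663738-74663766, minus strand: cgcgcTTGGCGCTAGATGTCCCTGcaagt
Hoxd10 coding exon, chr2:74694220-74694248, minus strand: cttacTGATCTCTAGGCGGCGCTCgcggg
Hoxd9 start, chr2:74697762-74697790, plus strand: cgccgCCGCCACCAGGGCGGGCTGagccg
Between Hoxd13 and Hoxd12, chr2:74673169-74673197, minus strand: ccaaaCGCCCAGGAGATGGCGAGCgtgct
Hoxd11, chr2:74686472-74686500, plus strand: ttctaCAGCCACACGAGGGCGCGCtcatg
Between Hoxd9 and Hoxd8, chr2:74702387-74702415, plus strand: gcattTGGCCACTAGAGAGCGCTGttgct
Hoxd4, chr2:74715913-74715941, plus strand: agcttTGTCCAGGAGGAGGCGCTGtagga
The match in the Evx2 untranslated region scored 22.0 bits, the highest of the 9. That upstream of Evx2 scored 2.84 bits, and that between Evx2 and Hoxd13 scored −0.751 bits, below the cutoff. The matches at Hoxd10 and Hoxd9 scored 8.65 and 2.83 bits. The 4 sites absent from both alleles scored 11.7, 9.05, 14.8 and 13.9 bits in the order printed. All 4 matches on the Evx2 to Hoxd12 side of the cluster were on the minus strand. The matches at Hoxd11, Hoxd9, between Hoxd9 and Hoxd8, and at Hoxd4 were on the plus strand, and that in Hoxd10 was on the minus strand.

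The lists had similar lengths and different strengths. After peaks of the same region were merged, del(1-13)d9lac held 41588 peaks and del(attP-Rel5)d9lac 42957, beside 43533 in wild-type whole limbs. Strength is given as the −log10 q that the peak caller assigned to a summit, which rises with both enrichment and sequencing depth. Its median was 16.1 in del(1-13)d9lac, 22.2 in del(attP-Rel5)d9lac and 17.0 in wild-type whole limbs. The median fold enrichment over background was 8.93, 9.64 and 8.59, and the median peak width 318, 320 and 315 bp. How deeply each library was sequenced is not known, so an absent peak is only an absent call. Fewer bound cells cannot be told apart from weaker binding per cell. DNA that an allele deletes cannot give a native peak in homozygous embryos. Since the end points of the deletions are not given, a missing peak near HoxD may also mean missing DNA. Peaks of CTCF do not mark cell types, so the labelled tissue could not be checked against markers.

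Across the whole region from 73 to 76 Mb of chromosome 2, the alleles shared most CTCF intervals, and the strong differences between them were gathered beside Evx2. Peaks of the 2 lists that overlapped by at least 1 bp were joined into intervals. Of 86 such intervals, 57 held a peak of both alleles (66.3%, Wilson 95% interval 55.8 to 75.4%, which covers counting error only, like all intervals given here). Another 14 held a peak of del(1-13)d9lac only and 15 a peak of del(attP-Rel5)d9lac only. Genome-wide, 28.2% of intervals had a peak in 1 list only, 12.7% in the del(1-13)d9lac list and 15.5% in that of del(attP-Rel5)d9lac. The corresponding shares of the region, 16.3% and 17.4%, lay near these backgrounds. Among 858 tiles of 3 Mb with at least 10 intervals, the median share in both lists was 70.9%, with quartiles of 64.3% and 76.3%, and the HoxD tile stood at percentile 30.8. In its number of differing intervals, the 3 Mb around HoxD was therefore an ordinary tile.

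**Figure D1:**
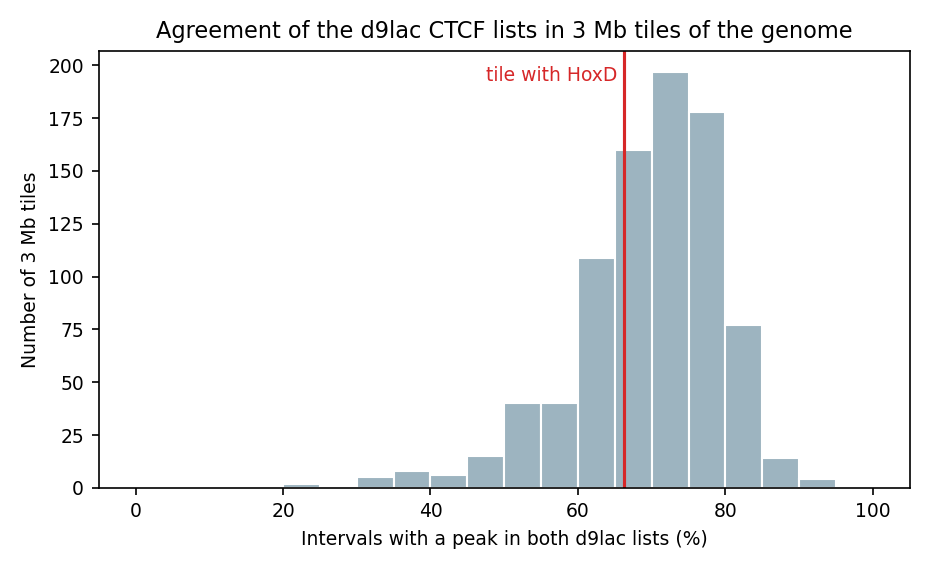
Number of 3 Mb tiles of the genome (vertical axis, 858 tiles with at least 10 intervals) by the percent of intervals with a peak in both d9lac lists (horizontal axis). The red line marks the tile with HoxD at 66.3%, within the lower part of the main body of tiles and below the median of 70.9%.

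At the cluster itself the differing sites lay together, and 2 of them were strong. The last del(attP-Rel5)d9lac peak before Lnpk ended at chromosome 2 position 74306040 and the first after Mtx2 started at position 74964323. This span of 658 kb, delimited after the values were seen, held 2 peaks of del(attP-Rel5)d9lac, 8 of del(1-13)d9lac and 10 of wild-type whole limbs. Distal and proximal wild-type forelimbs had 17 and 16 peaks there, and del(8-13)d11lac had 9. Of the 8 intervals of the d9lac lists in the span, 6 were called in del(1-13)d9lac only, 2 in both and 0 in del(attP-Rel5)d9lac only. On the centromeric side of the span, 27 of 42 intervals were shared, 5 were in del(1-13)d9lac only and 10 in del(attP-Rel5)d9lac only. On the telomeric side, 28 of 36 were shared, 3 were in del(1-13)d9lac only and 5 in del(attP-Rel5)d9lac only. Without the span, 55 of 78 intervals were shared (70.5%, 59.6 to 79.5%), beside a genome-wide 71.8%.

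**Figure D2:**
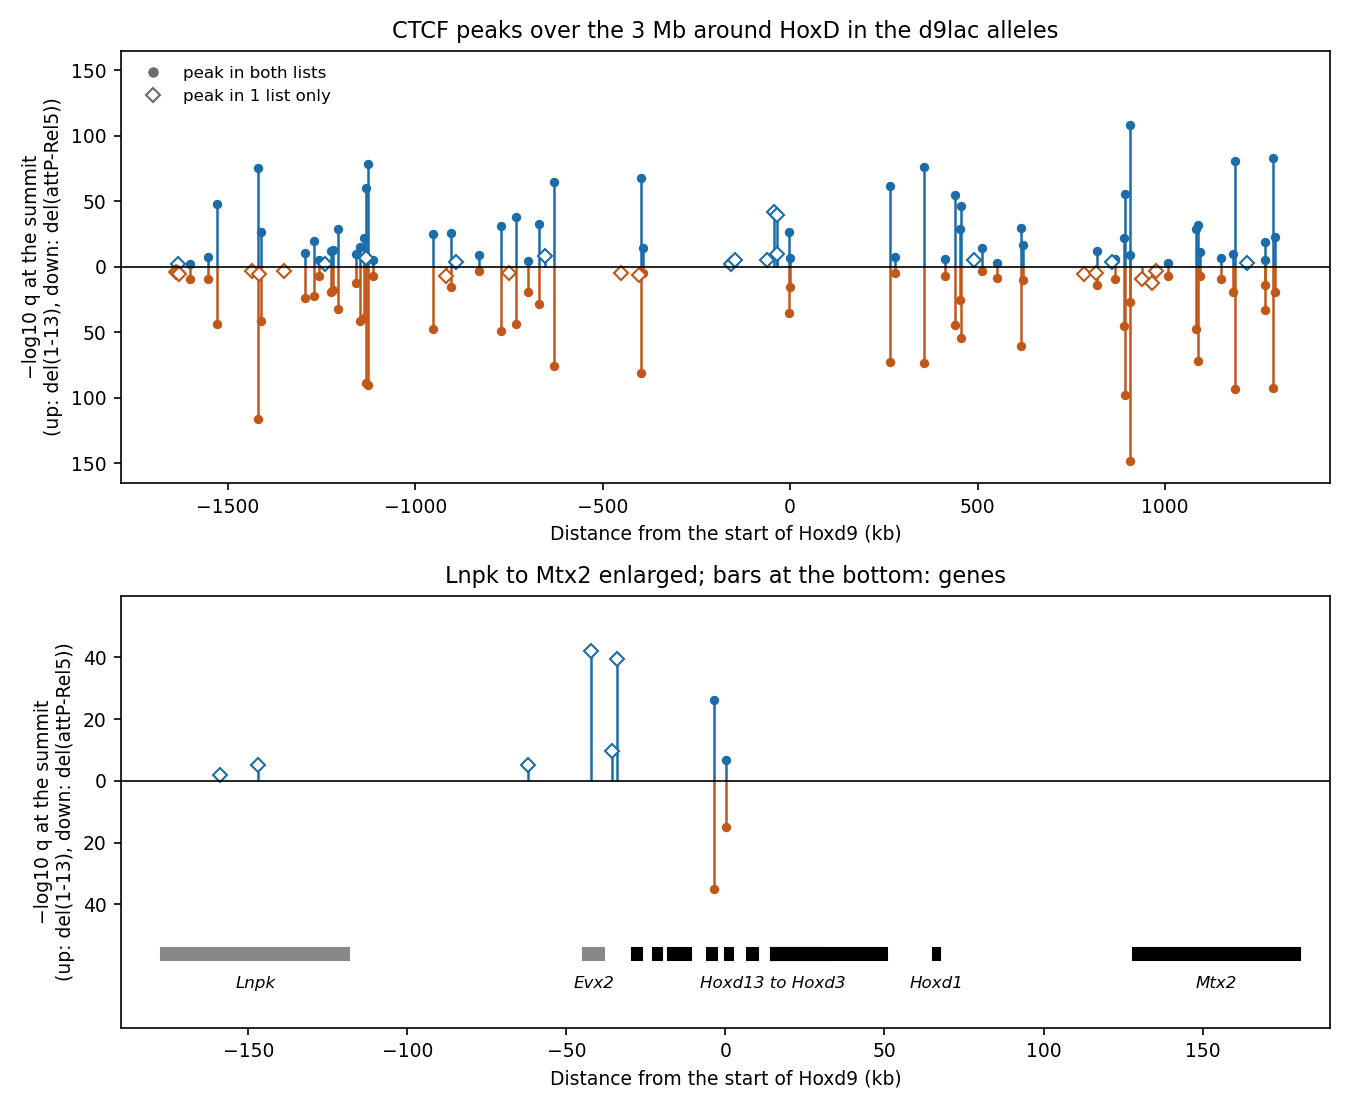
CTCF peaks by distance in kb from the start of Hoxd9 (horizontal axis) with their −log10 q (vertical axis), del(1-13)d9lac upward and del(attP-Rel5)d9lac downward; filled circles are peaks in both lists, open diamonds peaks in 1 list, and bars below the enlarged panel genes of the plus (black) and minus (grey) strand. The 6 open diamonds between Lnpk and Hoxd13 include the 2 tallest peaks in 1 list, at 42.1 and 39.6, while peaks at Hoxd10 and Hoxd9 appear in both directions.

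The strongest of the 6 were 3 sites next to Evx2. The site in the Evx2 untranslated region (chr2:74655387-74655732) reached a −log10 q of 42.1 for del(1-13)d9lac and had no peak in del(attP-Rel5)d9lac. Its −log10 q was 22.3 in wild-type whole limbs, 145 in distal and 78.8 in proximal forelimbs, and 42.3 in del(8-13)d11lac. The site was thus present in every CTCF list used except that of del(attP-Rel5)d9lac, and it overlapped a RAD21 peak with a −log10 q of 9.52. The site between Evx2 and Hoxd13 (chr2:74663577-74663895) reached 39.6 for del(1-13)d9lac and had again no peak in del(attP-Rel5)d9lac. The other lists gave 34.7 in wild-type whole limbs, 139 distally, 159 proximally, 87.1 in del(8-13)d11lac and 67.6 for RAD21. The weaker neighbour upstream of Evx2 (chr2:74661860-74662112) had a −log10 q of 9.72 in del(1-13)d9lac, 11.9 in wild-type whole limbs, 27.8 and 40.3 in distal and proximal forelimbs, and 38.2 in del(8-13)d11lac. Its RAD21 peak, at 89.6, was the strongest of the 3 sites.

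The first 2 of these sites were also the strongest of the genome among intervals found in del(1-13)d9lac alone, ranks 1 and 2 of 6257. The fold enrichments in that list were 14.6 and 13.6, and the sites stood at percentiles 79.0 and 77.1 of its peaks by −log10 q. Of the 4594 intervals whose del(1-13)d9lac peak was within a factor of 1.2 of 42.1, 4592 had a peak in del(attP-Rel5)d9lac, and so did 4678 of 4680 at the strength of 39.6. Those left over were the Evx2 sites themselves. At the strength of the third site, 89.8% of 4311 intervals were shared, and it ranked 296 of 6257, so its absence alone was less unusual for its strength.

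The other 3 intervals of the span seen in del(1-13)d9lac alone were weak. Lnpk, which encodes an endoplasmic reticulum protein, held 2 of them in introns. The first (chr2:74538067-74538263) had a −log10 q of 2.04 and no counterpart in any other list used. The second (chr2:74550790-74551110) had a −log10 q of 5.16, with 7.54 in distal and 8.24 in proximal forelimbs and 6.32 in del(8-13)d11lac, and no peak in wild-type whole limbs. The last, in intergenic DNA (chr2:74635576-74635772), also had 5.16, beside 19.8, 14.5 and 16.1 in the same 3 lists. Intervals of like strength were shared in 21.0% of cases at 2.04 and in 64.0% at 5.16, so peaks of these strengths were often unshared elsewhere too.

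In sequence, the 6 sites formed an unbroken run: over 126 kb, every d9lac interval belonged to del(1-13)d9lac alone. Runs were counted after the data had been seen. On the autosomes there were 5099 runs of consecutive intervals called in del(1-13)d9lac only, the longest had 6 intervals, and the HoxD run was the only 1 of that length. By settings chosen after the data were seen, with both lists reduced to equal length, 2 other autosomal runs were as long. With a −log10 q of at least 10 required in both lists, the run had 3 intervals and 5 others were at least as long. Of the 6 sites, only the 2 strong Evx2 sites passed that cutoff. The neighbouring shared interval chr2:74305796-74306145 joined them, because its del(attP-Rel5)d9lac peak of 4.52 fell below the cutoff. As first counted, the HoxD run had a median −log10 q of 7.44. Chromosome Y held longer runs of 14 and 9 intervals, none of whose peaks exceeded a −log10 q of 7.68. For del(attP-Rel5)d9lac alone, autosomal runs of at least 6 intervals numbered 3, of 8 on chromosome 8, 7 on chromosome 1 and 6 on chromosome 19. The strongest peaks of these were 8.90, 10.3 and 26.2, so a long run with a strong peak was also found outside HoxD, in the other direction. That allele also had runs of 7 intervals on chromosome Y and 6 on chromosome X. Their median −log10 q values were 15.7 and 10.0, above that of the HoxD run, and their strongest peaks 21.4 and 18.1.

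At reference positions inside the cluster the alleles shared 2 sites. The peak in the coding exon of Hoxd10 (chr2:74694058-74694416) had 26.3 in the del(1-13)d9lac list and 35.0 in the del(attP-Rel5)d9lac list (−log10 q), with fold enrichments of 11.8 and 12.9. Wild-type whole limbs had 34.4 there, distal forelimbs 115 and proximal forelimbs 149, whereas del(8-13)d11lac and RAD21 had no peak. The second site covered the start of Hoxd9, with its summit 41 bp into the untranslated region (chr2:74697628-74698137). Its −log10 q reached 6.84 in the del(1-13)d9lac list and 15.0 in the del(attP-Rel5)d9lac list, with fold enrichments of 5.39 and 7.37. No wild-type CTCF list and no del(8-13)d11lac peak overlapped it, while wild-type RAD21 had a peak of 6.25. The lists place reads on the reference genome and cannot tell a peak on transgene DNA from a peak at the native position. Both positions lie between Hoxd1 and Hoxd13, the genes in the name del(1-13), so their native DNA may be missing in that allele. Where the reads of these peaks come from was not tested.

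Peaks common to the d9lac lists and foreign to the other CTCF lists were rare anywhere. Of 35285 shared intervals, 57 (0.162%) overlapped no wild-type CTCF list and 15 (0.0425%) overlapped none of the wild-type or del(8-13)d11lac lists. Ranked by the weaker of their 2 peaks, a ranking chosen after the values were seen, the Hoxd9 start was the strongest of the 15. The next was an intron near Bahd1, with 5.72 and 5.40 in del(1-13)d9lac and del(attP-Rel5)d9lac, followed by an intron near Dclk2 with 5.16 and 8.20. Of the 15, the Hoxd9 interval was the only 1 on chromosome 2 within the 3 Mb around HoxD.

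Of the 12 wild-type whole-limb sites of the 3 Mb that both alleles lacked, 5 lay among the Hoxd genes and were the strongest. Neither d9lac list had a peak between Hoxd13 and Hoxd12 (chr2:74672984-74673330, −log10 q of 54.1 in wild type), in Hoxd11 (chr2:74686323-74686684, 56.8), just before Hoxd10 (chr2:74691608-74691923, 12.4), between Hoxd9 and Hoxd8 (chr2:74702212-74702605, 60.4) or at Hoxd4 (chr2:74715703-74716372, 53.4). A weak wild-type peak in Lnpk, at 2.07, was absent from both as well, and the other 6 lay in the flanks, with wild-type values from 2.07 to 7.88. Of the 10 wild-type peaks from Lnpk to Mtx2, therefore, 6 were in neither allele, 3 in del(1-13)d9lac alone and 1 in both. The 5 sites among the Hoxd genes lie within the stretch from Hoxd1 to Hoxd13 that the name del(1-13) refers to. Whether their DNA, or that of the Evx2 sites in del(attP-Rel5)d9lac, was deleted was not tested.

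Counted over all 72 wild-type whole-limb peaks of the 3 Mb, 51 were in both alleles (70.8%), 5 in del(1-13)d9lac alone, 4 in del(attP-Rel5)d9lac alone and 12 in neither (16.7%). Genome-wide the shares were 76.1% in both, 3.86% in del(1-13)d9lac alone, 6.63% in del(attP-Rel5)d9lac alone and 13.4% in neither, of 43533 peaks. Of the 5 wild-type sites kept by del(1-13)d9lac alone, 3 were the Evx2 sites, and the other 2 had wild-type values of 2.80 and 2.88. The 4 kept by del(attP-Rel5)d9lac alone had wild-type values from 3.75 to 8.79.

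In the flanks of the cluster, every interval with a peak of at least 20 in either list was called in both alleles, though strengths differed. Nearest on the centromeric side, chr2:74300266-74300648 reached 67.9 in the del(1-13)d9lac list and 80.7 in the del(attP-Rel5)d9lac list, and nearest on the telomeric side, chr2:74964301-74964752 had 62.1 and 72.6. The strongest peak of the region in either list (chr2:75605672-75606113) reached 108 and 148. Farther out on the centromeric side of the 3 Mb, a site in an intron of Sp9, a zinc-finger gene of the limb ectoderm (chr2:73278441-73278823), had 75.7 and 116, and 2 sites in Chrna1, the muscle acetylcholine receptor subunit gene, had 60.2 and 88.9 (chr2:73566953-73567358) and 78.2 and 90.5 (chr2:73572413-73572830). Some strong telomeric sites differed more. In the same order of alleles they had 32.1 and 71.9 (chr2:75786097-75786530), 55.7 and 97.5 (chr2:75590188-75590613), and 29.4 and 60.8 (chr2:75312230-75312602). Over the 57 shared intervals the value was higher in del(attP-Rel5)d9lac in 44, with a median ratio of 1.33, close to the genome-wide 1.41. Among the sites that went the other way were chr2:74305796-74306145 at the edge of the span, with 14.5 in del(1-13)d9lac and 4.52 in the other allele, and chr2:75208233-75208546, with 14.4 and 3.48.

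Differing intervals in the flanks were weak in both directions. On the centromeric side the strongest were 8.10 in del(1-13)d9lac alone (chr2:74042520-74042752) and 7.22 in del(attP-Rel5)d9lac alone, beside Chn1 (chr2:73779149-73779342). Telomeric of the span they were 5.16 and 12.3. The latter lay in an intron of Hnrnpa3, an RNA-binding protein gene (chr2:75663966-75664255), and had 17.1 and 22.2 in distal and proximal forelimbs, 13.4 in del(8-13)d11lac and no peak in wild-type whole limbs. At that strength 81.6% of 4206 del(attP-Rel5)d9lac intervals had a peak in del(1-13)d9lac. Of the 49 intervals of the 3 Mb with a peak of at least 10 in either list, 46 were shared, and the 3 others were the 2 strong Evx2 sites and the Hnrnpa3 site. At a minimum of 20, 34 of 36 were shared, and the exceptions were the Evx2 sites; at 50, all 15 were shared.

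Genome-wide, the d9lac lists shared 35285 of 49164 intervals (71.8%, 71.4 to 72.2%). Of the del(1-13)d9lac peaks, 85.0% overlapped a del(attP-Rel5)d9lac peak (84.6 to 85.3%), and in the reverse direction the share was 82.3% (81.9 to 82.6%). By the same measure del(1-13)d9lac shared 69.3% of intervals with wild-type whole limbs, and del(attP-Rel5)d9lac 71.4%. With del(8-13)d11lac the shares were 60.5% and 64.6%, against a longer list of 61200 peaks. Shared peaks coincided in position: their summits lay a median of 13 bp apart, 93.3% within 50 bp and 99.7% within 200 bp. Nearly all shared intervals (99.7%) joined exactly 1 peak of each list, and 65.4% of the bases covered by either list were covered by both.

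Agreement rose steeply with strength. In the weakest decile of the del(1-13)d9lac list 31.4% of peaks were shared, rising to 56.6%, 75.8%, 89.4% and 96.9% in the next 4 deciles and 99.7% in the sixth. The del(attP-Rel5)d9lac list ran from 30.9% through 49.3%, 66.2%, 82.9% and 94.5% to 98.9%. Of the 4159 del(1-13)d9lac peaks in the eighth decile, the 2 Evx2 sites were the only ones not shared. Where the stronger peak of an interval reached 10, 95.5% of 32132 intervals were shared, at 20 99.6% of 23316, and at 50 11704 of 11705, thresholds of which the latter 2 were chosen after the values were seen. Among the unshared intervals, 267 of del(1-13)d9lac and 1186 of del(attP-Rel5)d9lac reached 10, and 10 and 89 reached 20.

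**Figure D3:**
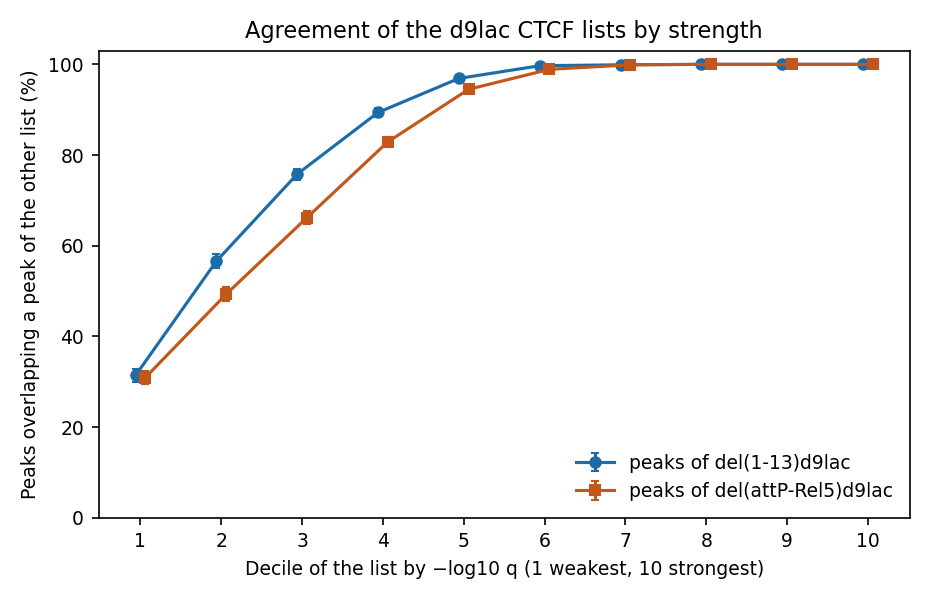
Percent of peaks that overlap a peak of the other d9lac list (vertical axis, with Wilson 95% intervals) in deciles of each list from weakest to strongest by −log10 q (horizontal axis). Both curves rise from near 31% in the weakest decile to above 98% from the sixth decile on.

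In shared intervals the 2 libraries ranked sites alike. Spearman's rho of the −log10 q was 0.899 over 35285 intervals, a description over sites of the same 2 libraries, and 0.877 for fold enrichment. Their median −log10 q was 20.9 in the del(1-13)d9lac list and 31.1 in the del(attP-Rel5)d9lac list, and the latter value was higher in 81.2% of intervals. The median ratio of del(attP-Rel5)d9lac to del(1-13)d9lac was 1.41 for −log10 q and 1.08 for fold enrichment. By rank among the shared intervals, taken separately in each allele, 60.7% of shared intervals moved by at most 10 percentile points and 93.6% by at most 25.

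**Figure D4:**
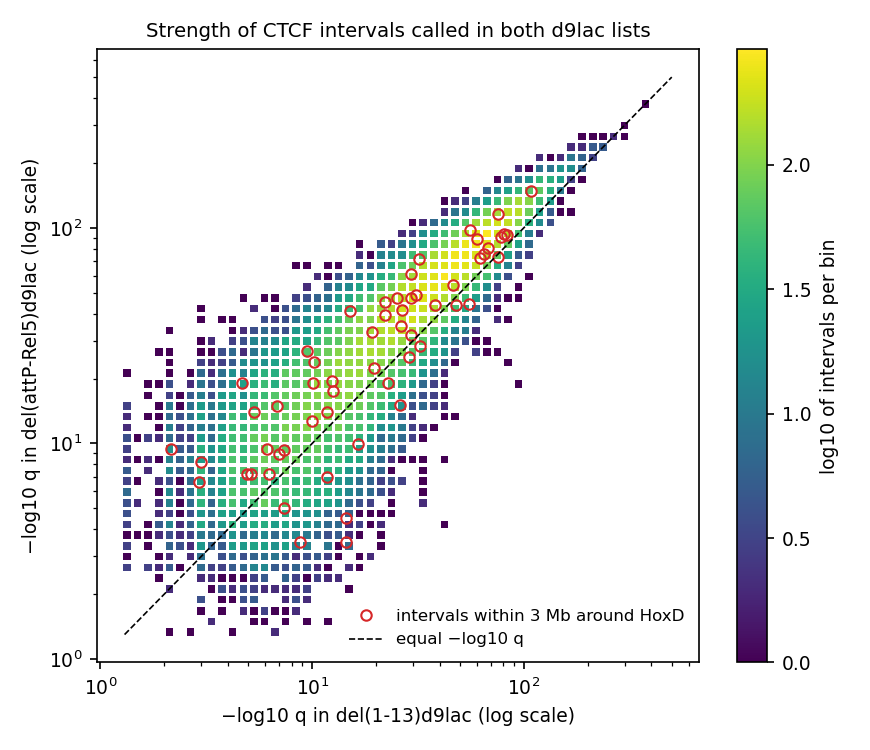
The −log10 q of shared intervals in del(1-13)d9lac (horizontal, log scale) and del(attP-Rel5)d9lac (vertical, log scale), with colour giving the log10 number of intervals per bin and red circles the 57 shared intervals of the 3 Mb around HoxD. Most bins lie above the dashed line of equality, as do 44 of the 57 red circles.

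A few shared sites departed far from this order. The largest falls in this rank from del(1-13)d9lac to del(attP-Rel5)d9lac, up to −73.1 percentile points, were at intergenic DNA nearest Zwint, a kinetochore gene (chr10:72297103-72297472), where −log10 q was 42.1 and 4.23, and near Dgke, a diacylglycerol kinase gene (42.0 and 8.25). Near H2-Q7, a class I histocompatibility gene with near-identical copies in which read placement is uncertain, the values were 94.6 and 19.0, and near Lrrtm1 32.9 and 5.26. The largest rises, up to 59.8 points, were in Cmss1 (4.93 and 49.6), near the spliceosome gene Snrpf (8.87 and 69.8), near Cldn34c1 (3.08 and 40.3), near Eef1e1 (3.04 and 38.0) and near Pla2g2c (9.53 and 65.6). The summits near Zwint, Dgke and Lrrtm1 lay in soft-masked repeats and had no motif match. That near Cldn34c1 lay in a repeat too, with a motif match, and the other sites of this paragraph lay outside repeats. Close to Zfp202, a zinc-finger gene, neighbouring sites went opposite ways: chr9:40224296-40224682 had 34.5 and 5.88, whereas chr9:40228135-40228461 had 33.2 for del(attP-Rel5)d9lac and no peak for del(1-13)d9lac.

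Away from HoxD, strong sites present in 1 allele alone were few beside the shared ones, and the 10 strongest of each allele lay on several chromosomes. For del(1-13)d9lac the 10 strongest ran from 26.1 to 19.5, all below the 2 Evx2 sites. They lay just inside Vamp9 (26.1), 132 kb from Dynlrb2 (25.8), in the untranslated region of Higd1a (24.8), just upstream of Gpr176 (22.8), in Ptpn5, a neuronal phosphatase gene (21.1), and nearest Cd59a (21.0), Ebf2 (20.9), Pstpip1 (20.1), Rnft1 (19.8) and Arhgef16 (19.5). All 10 had a peak in wild-type whole limbs, from 5.49 to 30.8. For del(attP-Rel5)d9lac the strongest was upstream of Hal, the histidine ammonia-lyase gene (chr10:93486673-93486984), at 51.3, beside 23.2 in wild-type whole limbs, 71.6 in del(8-13)d11lac and 40.3 for RAD21. It was the 1 interval over 50 not shared by the alleles. The next were in an intron of Nos1, nearest the start of Fbxo21 (39.0), and nearest Arglu1 (33.3), Zfp202 (33.2), Htr4 (32.4), the asparagine synthetase gene Asns (31.5), Slc22a12 (31.5), Robo3, an axon guidance receptor gene, in a coding exon (31.4), Add2 (30.8) and Cdc26 (30.4). These 10 too all had a wild-type whole-limb peak, from 4.67 to 23.2.

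Some of these sites also lacked a peak in the CD1 forelimb lists. This held for Gpr176, Cd59a and Rnft1 in del(1-13)d9lac, for Hal in del(attP-Rel5)d9lac, and for the shared Snrpf site, which lies near Hal on chromosome 10 (chr10:93611429-93611813). Of the intervals with a peak of at least 10, 5.24% of the 267 in del(1-13)d9lac alone, 0.927% of the 1186 in del(attP-Rel5)d9lac alone and 0.169% of the 30679 shared ones were called in wild-type whole limbs but in neither CD1 forelimb list. At that cutoff the shared intervals were much stronger than the others. Where the stronger peak lay between 5 and 10, a range chosen after the data were seen, the shares in the same order were 1.51%, 0.802% and 0.686%. Strain was not tested as a source of these differences.

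Unshared intervals differed from shared ones in what else was found there. Of the shared intervals 93.9% overlapped a wild-type whole-limb peak and 99.8% a peak of any wild-type CTCF list. For del(1-13)d9lac alone these shares were 26.9% and 66.4%, and for del(attP-Rel5)d9lac alone 37.9% and 84.2%. A RAD21 peak was found at 60.5% of shared intervals, 9.56% of those in del(1-13)d9lac alone and 16.5% of those in del(attP-Rel5)d9lac alone. A motif match was present in 86.1%, 41.5% and 57.4%. Summits in soft-masked repeats made up 17.5%, 39.3% and 36.8%. The share within 1 kb of a protein-coding start hardly varied, at 8.53%, 7.45% and 8.50%.

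**Figure D5:**
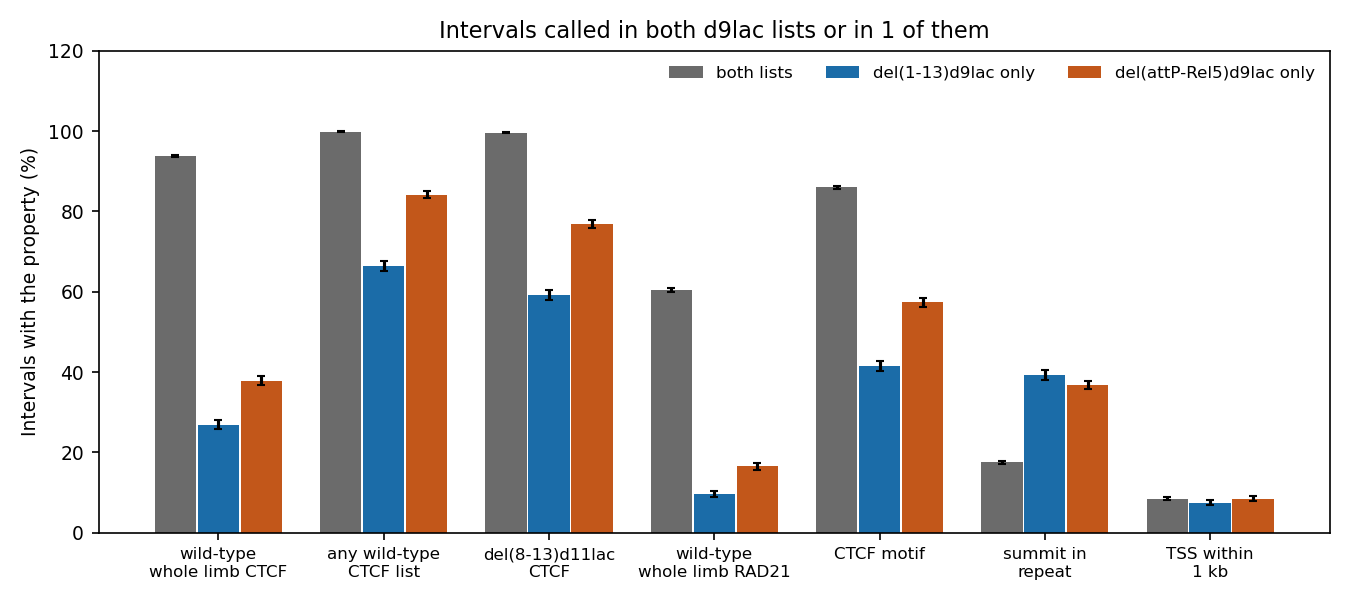
Percent of CTCF intervals (vertical axis, with Wilson 95% intervals) that overlap a peak of another list, hold a CTCF motif, have their summit in a repeat or lie within 1 kb of a transcription start site (TSS), for 35285 intervals in both d9lac lists, 6257 in del(1-13)d9lac only and 7622 in del(attP-Rel5)d9lac only. RAD21 overlap falls from 60.5% in shared intervals to 9.56% and 16.5% in the others, while the TSS share stays between 7.45% and 8.53%.

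Most of these contrasts were smaller among intervals of like strength. Where the stronger peak lay between 5 and 10, a range chosen after the data were seen, the motif was found in 68.6% of shared intervals, 58.3% of those in del(1-13)d9lac alone and 65.8% of those in del(attP-Rel5)d9lac alone. RAD21 was found at 19.8%, 11.1% and 15.9%, and repeats at 33.4%, 38.0% and 35.5%. Overlap with wild-type whole limbs still ran from 70.3% in shared intervals to 39.7% and 41.8%. At a strength of at least 10, which leaves shared intervals much stronger than the others, nearly all intervals of every kind were in some wild-type CTCF list, 98.9% of those in del(1-13)d9lac alone and 98.7% of those in del(attP-Rel5)d9lac alone. There, RAD21 was found at 66.6% of shared intervals, 13.1% of those in del(1-13)d9lac alone and 28.8% of those in del(attP-Rel5)d9lac alone. In the same order, whole-limb overlap was 97.8%, 68.5% and 69.6%, the motif share 89.0%, 70.0% and 78.7%, and the repeat share 15.0%, 35.2% and 28.2%.

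Agreement was even over the autosomes, from 68.0% on chromosome 12 to 74.3% on chromosome 11, and lower on the sex chromosomes. On chromosome X 66.5% of intervals were shared, and on chromosome Y 37 of 108 (34.3%). The lists held 1084 and 1172 peaks on X and 80 and 65 on Y in del(1-13)d9lac and del(attP-Rel5)d9lac. The sex of the pooled embryos is not given in the sources used here, and its part in these values was not tested.

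At the other Hox clusters most intervals were shared. Within 10 kb of the starts of 18 genes of the HoxD locus and its flanks, 3 of 8 intervals were shared (37.5%), 3 were in del(1-13)d9lac alone and 2 in del(attP-Rel5)d9lac alone. At HoxA 8 of 9 were shared, at HoxB 6 of 9 and at HoxC 3 of 4, beside 75.0% of 13910 over all protein-coding genes. The 1 unshared HoxA interval lay within Hoxa9 and had a −log10 q of 7.93 in del(attP-Rel5)d9lac. At HoxB the unshared intervals were near Hoxb1 in del(1-13)d9lac (4.04), and near Hoxb2 (6.22) and Hoxb7 (5.83) in del(attP-Rel5)d9lac, and at HoxC near Hoxc12 in del(1-13)d9lac (5.16). All of these were weaker than the 2 strong Evx2 sites.

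Genes of limb patterning and cartilage were close to the background. For the limb patterning list, 31 of 39 intervals were shared (79.5%), 4 were in del(1-13)d9lac alone and 4 in del(attP-Rel5)d9lac alone. The strongest of these were near Bmp4, a bone morphogenetic protein gene, in del(attP-Rel5)d9lac (7.59), near the T-box gene Tbx3 in del(1-13)d9lac (7.38), near Tbx2 in del(attP-Rel5)d9lac (4.53) and near Bmp7 in del(attP-Rel5)d9lac (4.46). At cartilage genes 10 of 11 were shared, the exception lying near Acan, the aggrecan gene, at 6.50 in del(1-13)d9lac. For CTCF and cohesin genes 8 of 10 were shared, and the 2 others were called in del(attP-Rel5)d9lac alone, 226 bp from the start of Ctcf itself (14.8) and near the cohesin gene Smc1a (2.62).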

How the data were processed

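Each sample is represented by a deposited narrowPeak list. Per the submitters' processing notes, cutadapt, Bowtie2 and MACS2 were used with build mm10; versions and settings are not given in the sources used here. The score column, a whole number that follows the −log10 q, was deposited in that form. Fold enrichment is the authors' ratio of summit signal to local background. The authors' caller also gave each summit a −log10 p and a −log10 q, whose minimum of 1.30 corresponds to a q-value of 0.0500. No list holds counts, so depth per sample is unknown and limits every missing call.

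Rows of 1 region were merged, keeping the strongest summit, on chromosomes 1 to 19, X and Y (126 and 161 rows elsewhere were left out of del(1-13)d9lac and del(attP-Rel5)d9lac). Peaks were joined into intervals at 1 bp of overlap and annotated by summit with GENCODE M21 on GRCm38, coordinates 1-based. The motif matrix was built from the 2000 strongest wild-type whole-limb summits, of which 93.6% passed the cutoff; 49107 control windows set it. Python 3.11.15, numpy 2.4.6, scipy 1.17.1 and matplotlib 3.10.9 were used, and the interval and motif steps were tested on simulated data. Named are all intervals of the 3 Mb in 1 list only (the weaker ones by count) and wild-type peaks from Lnpk to Mtx2. Of the strong shared flank sites, only a selection is named. Also named are the 10 strongest unshared intervals per list elsewhere, the 5 largest rank differences each way, and up to 4 unshared members per gene list. Predicted genes were passed over. Members and lists were chosen with earlier results of these data known. Alternatives changed the strength cutoff, the overlap rule, the list length and the chromosomes. Lists of SMC1, distal RAD21, both del(8-13)rXII libraries and H3K27ac were not analysed here.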

Additional observations from a re-analysis of the deposited data

How the results depend on the processing

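Of 39 planned recomputations, 17 moved a value beyond its counting interval (for a count, 1.5 times, and for rho, its sampling interval). None was scored as reversed, but shares and counts have no sign that could reverse. With a −log10 q of at least 10 required in both lists, the genome-wide share in both was 77.9% (from 71.8%), the HoxD share 75.5% (from 66.3%), the share of del(1-13)d9lac peaks in del(attP-Rel5)d9lac 94.5% and the reverse 81.6%, rho 0.874, and unshared intervals overlapping wild-type whole-limb peaks 85.7% (from 33.0%). With peaks of at least 10 set against the other list as deposited, these were 95.5%, 93.9%, 99.0%, 96.1% and, for wild-type overlap, 69.4%, and wild-type HoxD sites in 1 list only fell from 9 to 2, the 2 strong Evx2 sites. Because the lists differ in median strength, the same cutoff removes more of del(1-13)d9lac. With lists of equal length the values were 72.7% genome-wide, 84.2% in each direction and 34.9% for wild-type overlap; with summits within 200 bp the genome-wide share was 71.3%. Covering 50% of the shorter peak, or using autosomes only, moved no value beyond its interval. The Evx2 run, recomputed by settings chosen after seeing the data, had 6 intervals under both overlap rules, with 0 other autosomal runs as long. No paired analysis was possible because each allele has 1 library and its replicate number only names it.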
